A study of Mus musculus with 20 samples.

Results

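Pre-leptotene spermatocytes were compared with both of the fractions that flank them in spermatogenesis, the spermatogonia before and the leptotene-zygotene spermatocytes after. These 3 fractions took 10 of the 20 arrays of the series: 3 of pre-leptotene cells, 4 of spermatogonia and 3 of leptotene-zygotene cells, chosen by the fraction named in each array's title. The question was which genes stand higher, or lower, in pre-leptotene cells than in both neighbours. The mice were C57BL/6 by DBA/2J F1 males of 10 to 16 weeks by the sample labels, and no treatment is named. Testis cells were dissociated, stained with the DNA dye Hoechst and sorted into 8 fractions by flow cytometry. Each array carried a pool of RNA from several sorts, so that no array stands for 1 animal. The leptotene-zygotene fraction mixes both of these stages. RNA was primed with oligo-dT, labelled with biotin and hybridised to Affymetrix MOE430 version 2 arrays, on which a probe set is a group of short probes read as 1 transcript signal. All values below are log2 of the GC-RMA signal, a background-corrected and quantile-normalised intensity, and a difference of 1 is a factor of 2. A log2 value under 5 lies near the background of these arrays.

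Pre-leptotene spermatocytes are the last premeiotic germ cells of the male. Retinoic acid acting through STRA8 and MEIOSIN starts meiosis in them, the chromosomes are replicated for the last time, and the cells then enter the leptotene stage, in which programmed DNA breaks are made. Genes of the sperm tail, the acrosome and the condensed sperm nucleus are known mainly for their use much later, from pachytene spermatocytes to spermatids.

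The median signal of the 10 arrays was between 11.1 and 12.1 on the linear scale, before log2 was taken. The sample labels name no batch. Column names of a supplementary table number array projects, and by equal signals the 10 arrays fell into 5 of them; what a project shares, RNA preparation or hybridisation, is not stated. Project 2 held spermatogonia, pre-leptotene and leptotene-zygotene replicates 1, project 5 held replicates 2 of spermatogonia and of pre-leptotene cells, and project 8 held spermatogonia replicate 4, pre-leptotene replicate 3 and leptotene-zygotene replicate 3. Spermatogonia replicate 3 and leptotene-zygotene replicate 2 were the only arrays of these fractions in projects 7 and 6. Arrays of 1 project deviated from their fraction means together (7 pairs, r from 0.242 to 0.671). The main results are therefore also given with project as a block, meaning that a separate level is fitted for each project, and for leading genes as the 5 differences that can be taken within a project. Spermatogonia replicate 3 was the only array of the whole series in project 7, so the block took up its level and it added nothing there. With the block, comparisons with spermatogonia therefore rest on replicates 1, 2 and 4. Pre-leptotene replicate 1 was most like leptotene-zygotene replicate 1 across probe sets (Pearson r = 0.969), whereas replicates 2 and 3 were most like each other (r = 0.964). Sorted arrays of 1 fraction were thus not always nearest to one another.

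Few probe sets stood apart from both neighbours by the strict test. Of the 22396 probe sets tested with limma, 5 were higher in pre-leptotene cells than in both flanking fractions (0.0223%) and 2 were lower than both (0.00893%), at an adjusted p under 0.05 in each comparison. At an unadjusted p under 0.05 in both, 227 were higher and 484 lower. Taken singly, 16 probe sets were higher than in spermatogonia (0.0714%), 93 were lower than in spermatogonia (0.415%), 37 were higher than in leptotene-zygotene cells (0.165%) and 416 were lower than in leptotene-zygotene cells (1.86%). Each of these single counts was 0 without the block when the fit was given only these 10 arrays. In the same order they were 4, 14, 26 and 331 with median centring, and 6, 13, 39 and 388 with another quantile normalisation. With project as a block, 25 probe sets were higher than both (0.112%) and 174 lower than both (0.777%), and these held all 7 of the probe sets called without the block. The count with the block was 0 in both directions when the fit was given only these 10 arrays. Single arrays also decided the counts: without the block the lower count was 0 without spermatogonia replicate 1, pre-leptotene replicate 3 or leptotene-zygotene replicate 1 or 2, and 33 without spermatogonia replicate 3.

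A plainer description asks only whether the arrays overlap. All 3 pre-leptotene arrays lay above all 7 flanking arrays for 258 probe sets (1.15%) and below all of them for 392 (1.75%). These probe sets are called separated here. A difference of at least 1 on the log2 scale from both neighbours was found in 54 of the higher and in 201 of the lower ones. The median of the smaller of the 2 differences was 0.55 for the higher and 1.02 for the lower probe sets, against 0.19 over all probe sets tested. By this rule the lower side was both longer and deeper, and it held known genes of the sperm tail, the acrosome and the spermatid. Which side was longer depended on the rule. The strict test gave 5 higher and 2 lower probe sets, and 25 and 174 with project as a block. In all 5 within-project differences, 3970 probe sets were higher and 2687 lower.

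**Figure D1:**
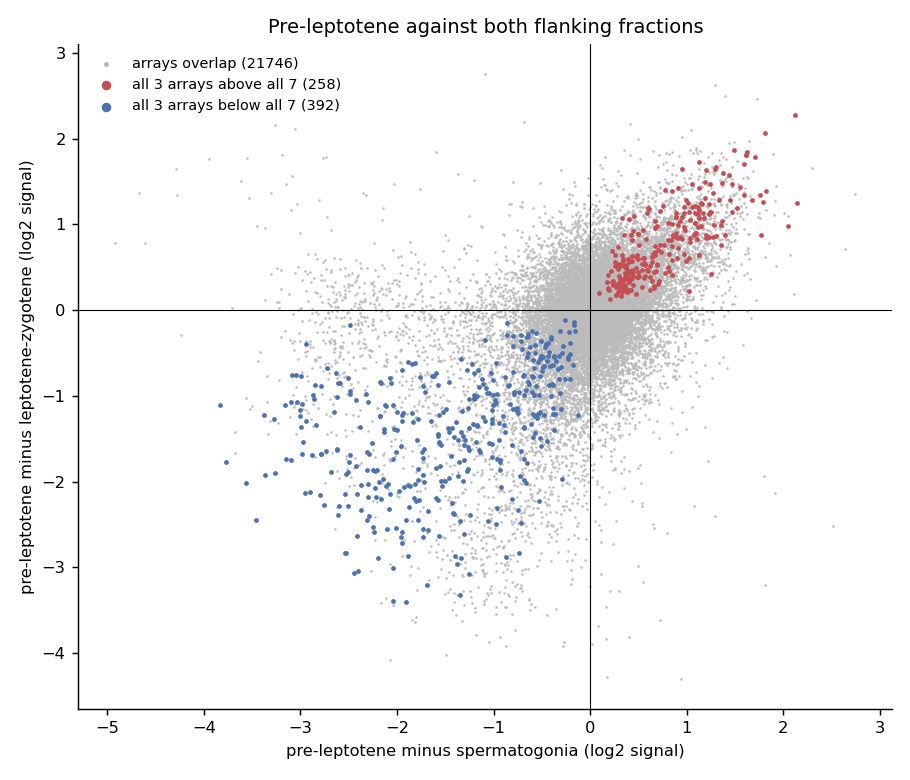
Each point is 1 probe set with its pre-leptotene minus spermatogonia difference on the horizontal axis and its pre-leptotene minus leptotene-zygotene difference on the vertical axis, both in log2 units, and colours mark the 258 probe sets whose 3 pre-leptotene arrays all lie above the 7 flanking arrays and the 392 that lie below them. The lower set spreads further from the origin than the higher set.

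Fank1, a testis-enriched gene with a fibronectin type III domain and ankyrin repeats, was lower than both neighbours by the strict test. Probe set 1447495_at read 9.02, 9.77, 8.05 and 7.76 in the 4 spermatogonia arrays, 6.33, 6.75 and 5.99 in the pre-leptotene arrays, and 8.10, 8.44 and 9.73 in the leptotene-zygotene arrays. Every pre-leptotene array was thus lower by at least 1 log2 unit than every flanking array. The difference was -2.29 ± 0.45 (SE) from spermatogonia and -2.40 ± 0.48 from leptotene-zygotene cells (limma, adjusted p = 0.0479 and 0.0211). With project as a block it was -2.49 and -2.63 (adjusted p = 0.0307 and 0.0161), and the 5 within-project differences ran from -3.74 to -1.77. Of the 4 probe sets of Fank1 tested, 3 were separated, the only gene of the lower side with 3. Its level in round spermatids was 11.77.

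The other lower probe set called was 1417469_at of Nit1, a nitrilase-family enzyme that hydrolyses deaminated glutathione. It read 5.03, 5.03, 5.0 and 4.48 in spermatogonia, 3.82, 3.10 and 3.04 in pre-leptotene cells, and 4.89, 4.87 and 4.84 in leptotene-zygotene cells. The difference was -1.56 ± 0.30 from spermatogonia and -1.55 ± 0.33 from leptotene-zygotene cells (adjusted p = 0.0479 and 0.0268, and 0.0307 and 0.00474 with the block). All of these values are near background, and with values under 5 raised to 5 the difference from spermatogonia was -0.014. The other probe set of Nit1 tested differed by -0.33 and -0.28 and was not separated.

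The promoters of Fank1 and of Dnajb13, a separated gene of the axonemal radial spoke described further on, are shown because each holds an X-box palindrome, the inverted repeat bound by RFX factors, among which RFX2 is needed for spermatid ciliary genes. The sequences are from RefSeq on GRCm38.p6, 300 bases from 250 before the annotated start to 50 from it, written along the gene's strand with the palindrome in capitals. The Fank1 window is chr7:133776641-133776940 on the plus strand, and its palindrome begins at position -29 from the start site. The Dnajb13 window is chr7:100514766-100515065 on the minus strand, and its palindrome, with 7 bases between the arms, begins at position -21.
Fank1: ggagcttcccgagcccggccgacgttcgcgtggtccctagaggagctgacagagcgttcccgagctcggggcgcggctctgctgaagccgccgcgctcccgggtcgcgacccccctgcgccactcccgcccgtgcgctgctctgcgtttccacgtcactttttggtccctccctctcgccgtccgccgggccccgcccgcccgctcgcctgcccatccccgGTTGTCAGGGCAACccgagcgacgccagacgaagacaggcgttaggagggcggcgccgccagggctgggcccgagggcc
Dnajb13: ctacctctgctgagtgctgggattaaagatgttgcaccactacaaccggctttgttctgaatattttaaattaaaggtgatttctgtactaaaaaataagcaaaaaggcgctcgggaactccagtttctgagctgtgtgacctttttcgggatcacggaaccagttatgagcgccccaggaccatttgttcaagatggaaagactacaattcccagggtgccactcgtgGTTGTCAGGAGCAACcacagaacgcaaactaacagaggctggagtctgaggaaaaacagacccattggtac

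Letters were counted over all promoter windows on both strands. The motifs were picked with these sequences and results in view, so the shares are a description. GTTGNNNNNNCAAC, the palindrome with 6 bases between its arms, was found in 5 of the 274 separated lower genes with a window (1.82%), in 1 of 158 separated higher genes (0.633%) and in 0.706% of all tested genes with a window. GTTGNNNNNNNCAAC, the form with 7 bases between the arms, was in 1.82% of the lower genes, 1.27% of the higher genes, 0.399% of tested genes and 0 of 49 genes of the flagellar axoneme list. The arm GTTGCC, which overlaps some palindromes, was in 61 of the 274 lower genes (22.3%), in 31 of the 158 higher genes (19.6%), in 18 of the 49 axoneme genes (36.7%) and in 15.8% of tested genes. The palindrome with 6 bases between its arms was in 2 of the 49 axoneme genes (4.08%). No binding was measured.

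Genes of the sperm tail stood low in pre-leptotene cells. Dnajb13 (1431119_at), an HSP40 protein of the radial spoke, read 7.28, 8.62, 6.57 and 6.94 in spermatogonia, 3.75, 6.55 and 5.04 in pre-leptotene cells, and 7.09, 7.30 and 8.69 in leptotene-zygotene cells. The highest pre-leptotene array, replicate 2, fell just short of the lowest spermatogonia array. The difference was -2.24 ± 0.58 from spermatogonia and -2.58 ± 0.62 from leptotene-zygotene cells, of which the second passed (adjusted p = 0.0856 and 0.0431). With project as a block both passed (adjusted p = 0.0307 and 0.0114), and the 5 within-project differences ran from -3.65 to -1.90. Cetn1 (1423203_a_at), the centrin of the male germ line, read 9.13, 10.30, 8.21 and 8.87, then 6.33, 7.63 and 7.29, then 9.43, 10.09 and 11.92 in the same order. Here too no pre-leptotene array reached a flanking one. The difference from leptotene-zygotene cells was the larger (-3.40 ± 0.57, adjusted p = 0.00983), and that from spermatogonia was -2.04 (adjusted p = 0.0865, or 0.0309 with the block). The somatic centrins Cetn2 and Cetn3 differed by 0.10 and -0.26 from spermatogonia and by -0.04 and -0.56 from leptotene-zygotene cells, and passed in neither.

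Efcab6, an EF-hand protein of the testis, and Septin12, a septin of the sperm annulus, showed the same order. Efcab6 (1453766_a_at) read 7.24, 8.73, 6.83 and 6.70 in spermatogonia, 3.33, 6.24 and 4.94 in pre-leptotene cells, and 6.54, 7.16 and 9.31 in leptotene-zygotene cells. Its differences were -2.54 and -2.83 (adjusted p = 0.0939 and 0.0562, and 0.0345 and 0.0178 with the block). Septin12 (1460497_a_at) read 7.98, 9.92, 7.45 and 7.71, then 3.95, 6.83 and 6.46, then 7.12, 8.50 and 10.13. A second probe set of this gene, 1438298_a_at, was brighter and ran the same way but overlapped, since pre-leptotene replicate 2 at 8.28 was above spermatogonia replicate 3 at 7.75. Kif2b, a kinesin that takes microtubules apart, differed by -2.22 and -2.18 and passed with the block only (adjusted p = 0.0309 and 0.0242).

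**Figure D2:**
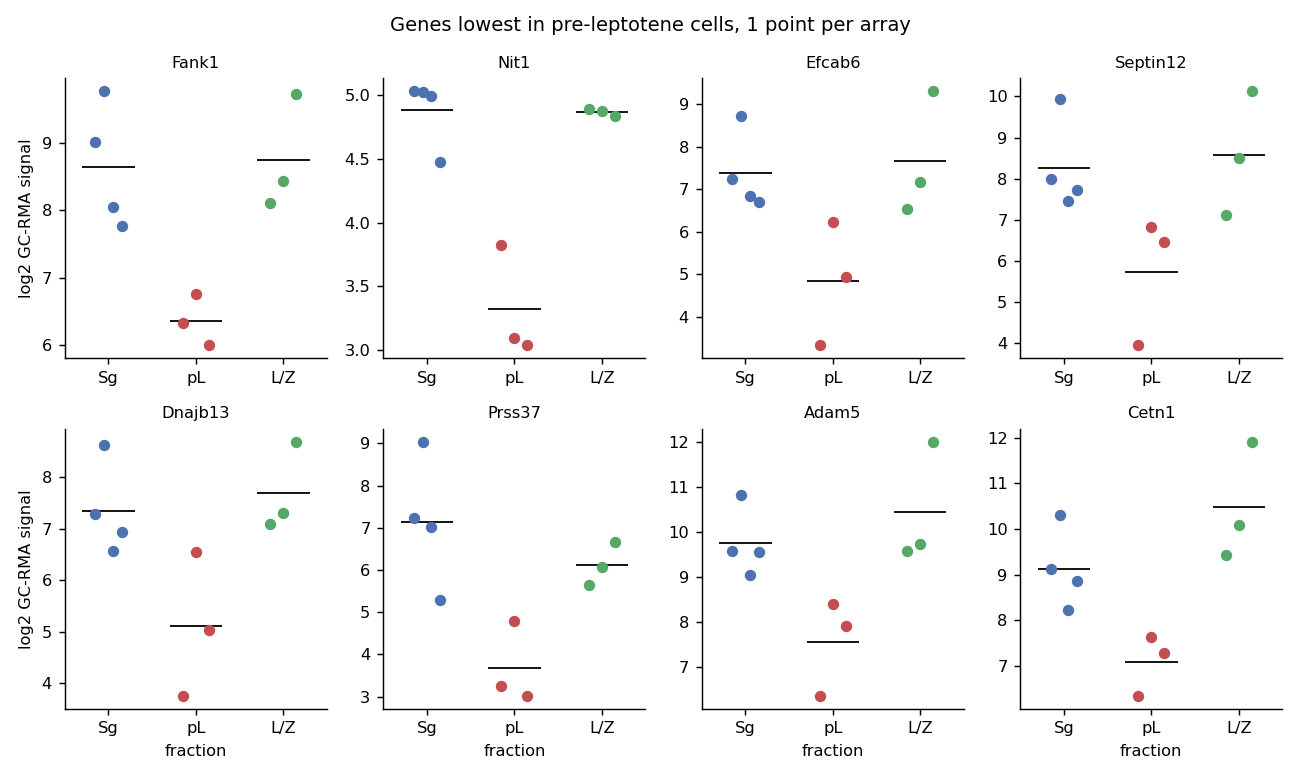
Log2 signal of genes whose 3 pre-leptotene arrays lie below all 7 flanking arrays, 1 point per array and a bar at the mean in spermatogonia (Sg), pre-leptotene (pL) and leptotene-zygotene (L/Z) cells. The mean of Fank1 is 6.36 in pre-leptotene cells, with the neighbouring means at 8.65 and 8.75.

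Proteins of the sperm surface and acrosome were the next group. Adam5 (1424798_a_at), a sperm-surface member of the disintegrin and metalloprotease family, read 9.56, 10.82, 9.04 and 9.55 in spermatogonia, 6.35, 8.40 and 7.90 in pre-leptotene cells, and 9.58, 9.74 and 12.00 in leptotene-zygotene cells. No array overlapped, and the difference from leptotene-zygotene cells passed (-2.89, adjusted p = 0.027) while that from spermatogonia passed with the block only (-2.20, adjusted p = 0.0864, and 0.0307 with the block). Adam3, needed for sperm to pass the oviduct, differed by -2.07 and -2.14 and was lower than both with the block (adjusted p = 0.0365 and 0.0379). Prss37, a serine protease-like protein needed for ADAM3 maturation, read 7.22, 9.04, 7.03 and 5.28, then 3.25, 4.80 and 3.01, then 5.65, 6.08 and 6.66. It was lower than in spermatogonia (-3.46 ± 0.63, adjusted p = 0.0408), and that from leptotene-zygotene cells did not pass (-2.44, adjusted p = 0.0781). With the block these were 0.0307 and 0.0528. Raising values under 5 to 5 took these to -2.14 and -1.13. Izumo3, of the family of sperm-egg fusion protein IZUMO1, was lower than in spermatogonia (-2.90, adjusted p = 0.0488), and its difference of -2.12 from leptotene-zygotene cells did not pass (adjusted p = 0.104, or 0.0511 with the block).

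Spermatid nuclear and sheath genes differed from spermatogonia more than from leptotene-zygotene cells. Tnp1, a transition protein that replaces histones in spermatids, read 14.80, 15.22, 13.75 and 13.11 in spermatogonia, 11.52, 12.07 and 11.61 in pre-leptotene cells and 13.04, 12.47 and 12.50 in leptotene-zygotene cells. It was lower than in spermatogonia (-2.49, adjusted p = 0.0265), and the difference of -0.94 from leptotene-zygotene cells did not pass (adjusted p = 0.412). Tnp2 gave -2.61 (adjusted p = 0.0399) and -0.85. Akap4, the main protein of the fibrous sheath, gave -2.63 (adjusted p = 0.0488) and 0.13. All 3 kept these calls with the block. The round spermatid mean of Tnp1 was 14.32, between the spermatogonia replicates 1 and 2 above it and 3 and 4 below. Prm1, a protamine, read 15.06, 15.44, 14.61 and 13.92 in spermatogonia and 14.11, 13.92 and 13.60 in pre-leptotene cells, against 14.40 in round spermatids. Over all 11992 genes, spermatogonia exceeded round spermatids in 6455. In the spermatid nucleus list this held for 4 of 15 genes, and in the fibrous sheath and dense fibres list for 3 of 21. It also held for 7 of 29 genes of testis metabolism and kinases, and for 0 of the axoneme and acrosome lists. How far spermatid RNA in the flanking fractions took part in the lower values was not tested, and in bulk samples fewer cells of a type and less RNA per cell cannot be told apart.

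Rfx2, the ciliary regulator itself, read 7.18, 6.96, 7.29 and 7.14 in spermatogonia, 4.91, 5.77 and 6.51 in pre-leptotene cells, and 6.81, 8.39 and 9.11 in leptotene-zygotene cells. It was lower than in leptotene-zygotene cells (-2.37 ± 0.52, adjusted p = 0.0315), and the difference of -1.41 from spermatogonia did not pass (adjusted p = 0.216), with the same outcome under the block (adjusted p = 0.0147 and 0.073).

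Whole gene lists were then counted with 1 probe set per gene, the one with the highest mean over the 20 arrays, for 11992 genes. Both this choice and the filter on low values used the later fractions, so genes high there could enter with values near background here. The median difference over all 11992 genes was -0.01 from spermatogonia and -0.04 from leptotene-zygotene cells, and the pre-leptotene mean was the lowest of the 3 fractions in 33.8% and the highest in 28.4%. The mean signal over all these genes was 7.67 to 7.71 in pre-leptotene arrays, 7.81 to 7.90 in spermatogonia and 7.82 to 7.99 in leptotene-zygotene arrays. A small part of every lower list value is thus shared by all genes. Of the 54 tested genes of the flagellar axoneme, pre-leptotene cells had the lowest mean in 53. The median difference was -0.79 from spermatogonia and -2.22 from leptotene-zygotene cells. Of the 54, 21 were lower than in leptotene-zygotene cells (2.5% of all genes) and 0 lower than in spermatogonia (0.634% of all genes). With project as a block, 40 were lower than in leptotene-zygotene cells (5.66% of all genes), 8 lower than in spermatogonia (4.91%) and 8 lower than both (1.09%). In 37 of the 54 all 5 within-project differences were negative (15.4% of all genes).

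Members of the axoneme list show how the difference is divided. Cfap52, a microtubule inner protein, had means of 6.0, 4.60 and 8.0 in spermatogonia, pre-leptotene and leptotene-zygotene cells. It was lower than in leptotene-zygotene cells by the strict test (-3.40, adjusted p = 0.00983) and lower than both with the block (adjusted p = 0.0307 and 0.000712). Rsph1, of the radial spoke head, had means of 9.57, 8.94 and 12.32, of which only the difference of -3.39 from leptotene-zygotene cells passed (adjusted p = 0.0172, or 0.00126 with the block). Dnah8, an outer arm dynein heavy chain, stood at 8.62, 8.35 and 10.68, and again only the later difference passed (-2.33, adjusted p = 0.0288, or 0.00226 with the block). The tektins, filament proteins of the doublet microtubules, ran from -1.95 for Tekt4 to -0.67 for Tekt2 against spermatogonia and from -2.89 for Tekt1 to -1.11 for Tekt5 against leptotene-zygotene cells, and none was called lower than both. All 24 tested genes with a Cfap symbol, for cilia and flagella associated proteins, had their lowest mean of the 3 in pre-leptotene cells, against 33.8% of all genes. Of the 11 symbol families counted this share was the highest. It was 16 of 22 for Spata, 23 of 37 for Ttc, 12 of 20 for Adam, 21 of 38 for Lrrc, 55 of 103 for Ccdc, 17 of 34 for Tex and 356 of 629 for RIKEN clones, and 57 of 147 for Tmem, 62 of 254 for Zfp and 5 of 37 for Rbm.

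Per array, the mean of the axoneme list was 5.87, 6.94, 5.57 and 6.55 in spermatogonia, 4.75, 6.06 and 5.41 in pre-leptotene cells, and 6.68, 7.14 and 8.68 in leptotene-zygotene cells. The list mean of pre-leptotene replicate 1 was near background, and its list median was 4.30. Pre-leptotene replicate 2 thus overlapped spermatogonia replicates 1 and 3, while all 3 pre-leptotene arrays lay below all leptotene-zygotene arrays. In each project the pre-leptotene array was the lower one. Round spermatids averaged 11.44.

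The other late lists shared the direction in different proportions. All 30 genes of the acrosome list had their lowest mean in pre-leptotene cells, with medians of -1.20 and -2.0. By the strict test, 3 were lower than in spermatogonia (0.634% of all genes) and 5 below leptotene-zygotene cells (2.5%), and with the block 9 and 15 (4.91% and 5.66%). The arrays of 6 acrosome genes were separated (2.33% of all genes). Among the 5 was Acr, the acrosin protease, with means of 6.23, 5.31 and 8.71 and a difference of -3.40 from leptotene-zygotene cells (adjusted p = 0.0213, or 0.00195 with the block). Of 29 genes of testis metabolism and kinases, 23 were lowest in pre-leptotene cells, with medians of -1.76 and -0.74. Ldhc, the sperm lactate dehydrogenase, was lower than in leptotene-zygotene cells (-2.56, adjusted p = 0.00983) and lower than both with the block (adjusted p = 0.032 and 0.0031). Of 21 genes of the fibrous sheath and dense fibres, 18 were lowest, with medians of -1.72 and -1.05, and of 15 genes of the spermatid nucleus 12 were lowest, with medians of -1.47 and -0.85. With the block, 16 metabolism genes, 11 sheath genes and 7 nuclear genes were lower than in spermatogonia, and 10, 4 and 4 below leptotene-zygotene cells. Sheath, nuclear and metabolism genes thus had the larger median against spermatogonia, and axoneme and acrosome genes against leptotene-zygotene cells.

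**Figure D3:**
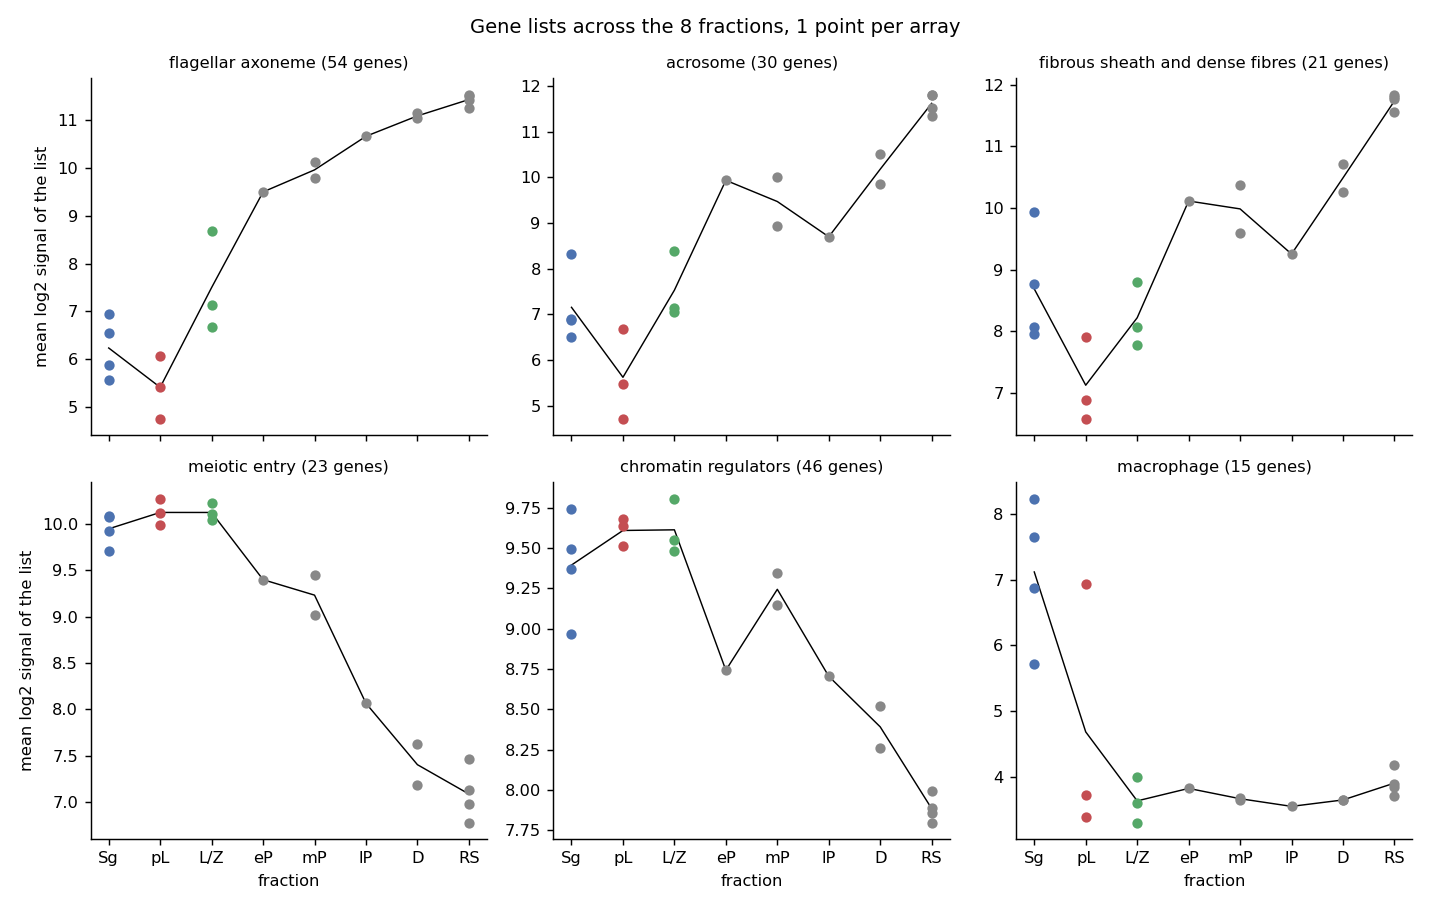
Mean log2 signal over the tested genes of 6 lists, 1 point per array and a line through the means of the 8 fractions from spermatogonia (Sg), pre-leptotene (pL) and leptotene-zygotene (L/Z) cells over early-, mid- and late-pachytene (eP, mP, lP) and diplotene (D) cells to round spermatids (RS). The axoneme list stands between 4.75 and 6.06 in pre-leptotene arrays and between 6.68 and 8.68 in leptotene-zygotene arrays.

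Genes of the pachytene germ line were divided. Of 28 tested, 15 were lowest in pre-leptotene cells (33.8% of all genes), with medians of -0.07 from spermatogonia and -0.77 from leptotene-zygotene cells. By the strict test 4 were lower than in leptotene-zygotene cells (2.5% of all genes), or 10 with the block (5.66%). Piwil1, the PIWI protein of pachytene piRNAs, was one of them, with means of 7.83 in pre-leptotene cells, 7.29 in the fraction before and 10.12 in the one after (-2.28 against the latter, adjusted p = 0.00983, or 0.00186 with the block). Its lowest mean was thus in spermatogonia.

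The later fractions were not used to separate the lower probe sets, but the filter on low values did use them, and 49 of the 392 passed it only through arrays outside these 3 fractions. Across the 392, the pre-leptotene median of 5.12 lay below 6.88 for spermatogonia and 6.72 for leptotene-zygotene cells, and medians went on to 8.17, 8.50, 9.01 and 9.46 in the early-, mid- and late-pachytene and diplotene spermatocytes, and 10.24 in round spermatids. Round spermatids were above pre-leptotene cells in 383 of the 392 (97.7%, against 43.7% of all probe sets tested). Among the probe sets that passed the filter within the 10 arrays alone, the count was 334 of 343 (97.4%, against 36.7% of 19616). Choosing probe sets low in the pre-leptotene arrays favours both counts, so the shares over all tested are not an equal baseline. In 355 of the 392 pre-leptotene cells had the lowest mean of all 8 fractions (18.3% of all tested), which their choice as lowest of 3 fixes in part. Genes named only by a RIKEN clone made up 48 of the 352 probe sets with a single named gene (13.6%, against 3.90% of all tested). One of these, 1700074P13Rik, read 10.86, 12.50, 10.18 and 9.98 in spermatogonia, 7.18, 9.20 and 8.43 in pre-leptotene cells, and 9.90, 10.37 and 11.70 in leptotene-zygotene cells, and was lower than both with the block (adjusted p = 0.0307 and 0.022).

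The size of the excess in the flanking arrays was also taken on the linear scale, over the 392 probe sets. The median excess over the pre-leptotene mean was 5.97%, 11.2%, 2.99% and 2.66% of the round spermatid signal in spermatogonia replicates 1 to 4, and 3.39%, 3.45% and 10.9% in leptotene-zygotene replicates 1 to 3. Spermatogonia replicate 2 and leptotene-zygotene replicate 3 were the highest of their fractions. Leptotene-zygotene replicate 3 was also the highest of its fraction for Fank1, Dnajb13, Cetn1, Efcab6 and Adam5.

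**Figure D4:**
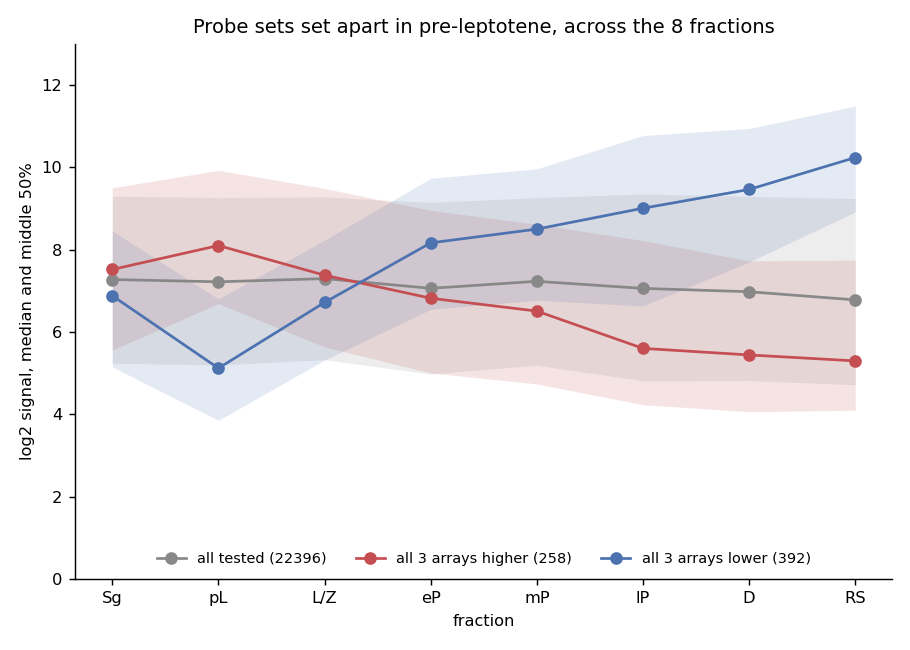
Median log2 signal of the 258 higher and the 392 lower separated probe sets and of all tested probe sets in the 8 fractions in order of differentiation, with the middle 50% shaded. The lower set goes from 5.12 in pre-leptotene cells to 10.24 in round spermatids, and the higher set from 8.10 to 5.30.

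On the higher side, 2 of the 5 called probe sets have a named gene. Clcn7 (1425821_at), the chloride-proton exchanger of lysosomes, read 4.59, 4.22, 5.12 and 4.55 in spermatogonia, 5.79, 6.58 and 6.28 in pre-leptotene cells, and 4.82, 4.92 and 4.88 in leptotene-zygotene cells. All pre-leptotene arrays were higher. The difference was 1.60 ± 0.30 from spermatogonia and 1.34 ± 0.32 from leptotene-zygotene cells (adjusted p = 0.0408 in both), and 1.77 and 1.49 with the block (adjusted p = 0.0307 and 0.0259). The within-project differences ran from 0.97 to 2.36. Another probe set of the gene, its brightest, differed by 0.10 and 0.09 only. In round spermatids 1425821_at was at 2.86.

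6430548M08Rik (1426446_at), a gene named by its RIKEN clone, read 5.18, 4.73, 4.61 and 4.83 in spermatogonia, 6.80, 6.06 and 6.30 in pre-leptotene cells, and 5.23, 5.40 and 4.22 in leptotene-zygotene cells. Its differences were 1.55 ± 0.29 and 1.44 ± 0.31 (adjusted p = 0.0408 and 0.0288), and the 5 within-project values lay between 1.33 and 2.08. The promoters of both genes are shown because each window holds the E-box CACGTG at 2 places, in capitals, a letter run bound by many basic helix-loop-helix factors. Both genes have 2 windows in RefSeq, of which the first is given. The Clcn7 window is chr17:25133141-25133440 and the 6430548M08Rik window chr8:120113902-120114201, both on the plus strand of GRCm38.p6. The runs begin at -15 and 8 from the start site in Clcn7 and at -207 and -60 in 6430548M08Rik.
Clcn7: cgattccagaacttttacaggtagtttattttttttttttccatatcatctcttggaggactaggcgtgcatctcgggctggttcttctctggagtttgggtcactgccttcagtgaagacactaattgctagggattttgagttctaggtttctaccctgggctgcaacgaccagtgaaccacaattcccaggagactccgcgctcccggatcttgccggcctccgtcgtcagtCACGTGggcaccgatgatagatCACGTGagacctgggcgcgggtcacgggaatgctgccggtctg
6430548M08Rik: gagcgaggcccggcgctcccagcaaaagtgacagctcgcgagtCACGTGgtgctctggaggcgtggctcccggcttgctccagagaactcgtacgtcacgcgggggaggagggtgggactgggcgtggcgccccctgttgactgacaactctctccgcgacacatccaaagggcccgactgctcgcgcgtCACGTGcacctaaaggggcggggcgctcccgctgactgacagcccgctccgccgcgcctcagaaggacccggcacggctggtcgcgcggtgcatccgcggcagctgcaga

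CACGTG was in 30 of the 158 separated higher genes with a window (19.0%), in 9.12% of the separated lower genes and in 11.7% of all tested genes. CNCCTCAG, a motif described for STRA8, was in 31 of the 158 (19.6%) and in 11.1% of tested genes, and 6430548M08Rik holds it at -6. E2F letters were rare, with TTTGGCGC in 1.90% of the separated higher, 1.82% of the separated lower and 1.18% of the tested genes. The other form counted, TTTCCCGC, was in 2.53%, 0.73% and 2.34% in the same order.

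The other 3 called probe sets carry no gene name in the annotation used. Probe set 1444855_at read 4.77, 4.55, 4.95 and 4.85 in spermatogonia, 5.59, 6.21 and 6.44 in pre-leptotene cells, and 4.98, 3.96 and 4.36 in leptotene-zygotene cells, which gives 1.30 and 1.65 (adjusted p = 0.0479 and 0.00983, and 0.0309 and 0.0141 with the block). Probe set 1459485_at differed by 2.12 and 2.27, and 1459641_at by 1.63 and 1.84. Both lay under 5 in all 7 flanking arrays, and with values under 5 raised to 5 their differences were 0.54 and 0.33 from both neighbours.

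Named genes among the separated higher probe sets were of mixed function. Azin2 (1444585_at), an antizyme inhibitor of polyamine metabolism, read 4.77, 5.55, 5.01 and 5.0 in spermatogonia, 5.58, 7.32 and 6.67 in pre-leptotene cells, and 4.89, 5.55 and 4.41 in leptotene-zygotene cells. The lowest pre-leptotene array exceeded the highest flanking arrays by a narrow margin. It was higher than in leptotene-zygotene cells (1.57, adjusted p = 0.0453), and with the block higher than both (adjusted p = 0.0333 and 0.0302). Rcn2 (1444248_at), a calcium-binding protein of the endoplasmic reticulum, read 6.56, 5.68, 6.41 and 5.60, then 7.09, 8.26 and 7.64, then 5.98, 6.21 and 5.68. It passed against leptotene-zygotene cells (1.71, adjusted p = 0.0496) but not against spermatogonia (1.60, adjusted p = 0.0741), and in neither with the block (adjusted p = 0.0735 and 0.112). Prune1, a phosphodiesterase, had 1.68 and 1.29 (adjusted p = 0.0548 and 0.118). Adarb1, which edits adenosine to inosine in RNA, had 1.24 and 1.47 (adjusted p = 0.187 and 0.106).

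Top2a, the topoisomerase of chromosome condensation and replication, was separated by a probe set (1442454_at) that read 8.49, 8.23, 8.11 and 7.76 in spermatogonia, 9.14, 9.84 and 9.15 in pre-leptotene cells, and 8.63, 8.44 and 7.35 in leptotene-zygotene cells. The differences of 1.23 and 1.24 did not pass (adjusted p = 0.165 and 0.171, or 0.109 and 0.185 with the block). Probe sets of Nasp, a histone chaperone, and Rbm39, a splicing factor, were among the 13 named ones of the 25 higher than both with the block. Only 3 of the 13 were the brightest of their gene. Other probe sets of Nasp differed by 0.09 and -0.03, and by -0.22 and -0.67, from spermatogonia and leptotene-zygotene cells.

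**Figure D5:**
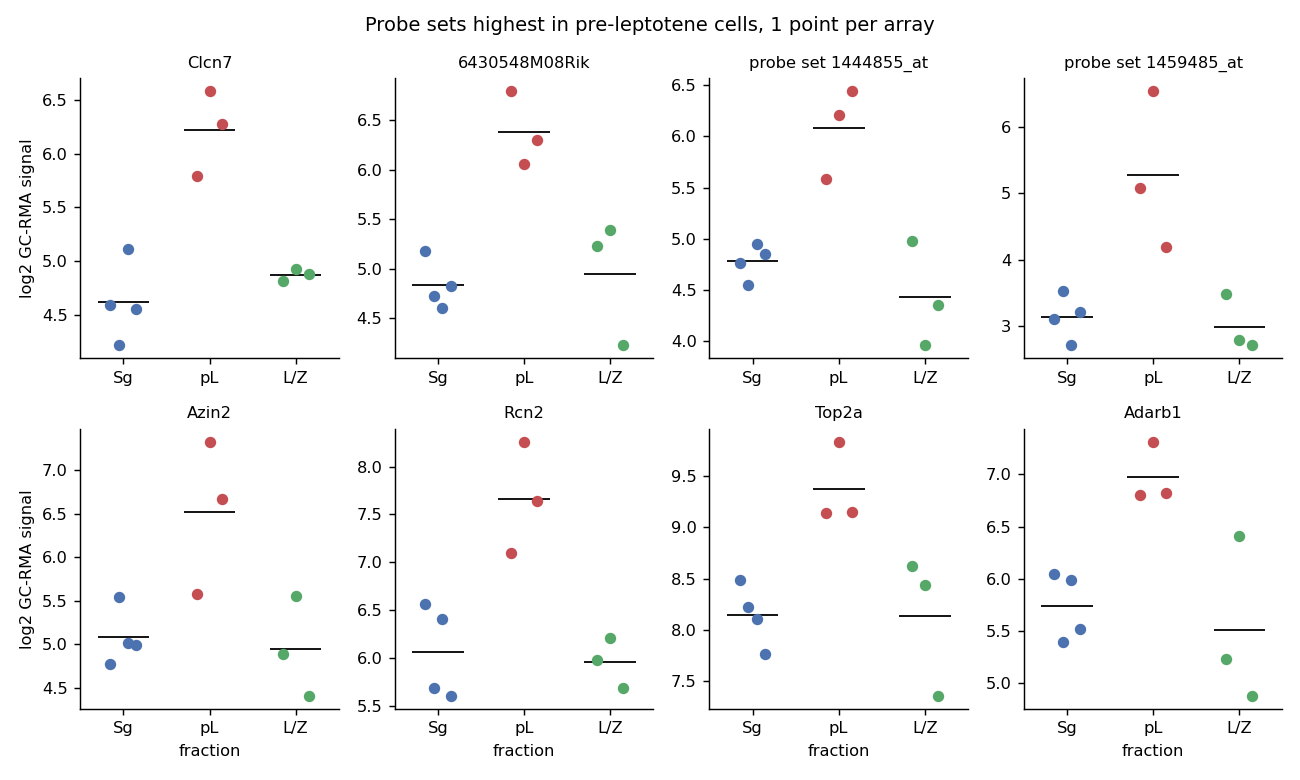
Log2 signal of probe sets whose 3 pre-leptotene arrays lie above all 7 flanking arrays, 1 point per array and a bar at the mean of each of the 3 fractions. Clcn7 stands at 6.22 in pre-leptotene cells against 4.62 and 4.87 in the neighbours.

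The higher probe sets differed from the lower ones in what they mark. No gene name was given for 23.3% of the 258, against 6.12% of the 392 and 10.0% of all tested. Of the 131 in genes with several tested probe sets, 91 were not the brightest of their gene (69.5%, against 61.5% of all tested), and in 0 genes was the brightest probe set separated too. On the lower side 72 of 147 were not the brightest (49.0%), and in 11 genes the brightest was separated as well. The higher set had a pre-leptotene median of 8.10, against 7.52 for spermatogonia, 7.38 for leptotene-zygotene cells and 5.30 for round spermatids. Pre-leptotene cells had the highest mean of all 8 fractions in 233 of the 258 (23.1% of all tested), which their choice as highest of 3 fixes in part. Chromosome X held 2.04% of the higher and 1.71% of the lower probe sets with a placed gene, against 2.81% of all.

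No known gene of meiotic entry was called. None of the 23 tested passed against either neighbour in either direction, and the medians were 0.19 and 0.04. The pre-leptotene mean was the highest of the 3 fractions in 13 of the 23 (28.4% of all genes) and the lowest in 0. With the block, Pcgf6, a Polycomb-group repressor of meiotic genes, was lower than in leptotene-zygotene cells (-1.41, adjusted p = 0.0495), the only member called. Stra8, the retinoic acid-induced regulator of meiotic entry, read 11.49, 10.88, 10.98 and 12.32 in spermatogonia, 11.84, 11.46 and 11.53 in pre-leptotene cells, and 12.54, 12.05 and 12.32 in leptotene-zygotene cells. Its differences were 0.19 and -0.69 (adjusted p = 1 and 0.924, and 0.999 and 0.86 with the block). Rec8, a meiotic cohesin, differed by 0.07 and 0.44, and Kit, the receptor of differentiating spermatogonia, by 0.45 and -0.20. Spo11, the enzyme of meiotic DNA breaks, stood at 4.34, 7.03 and 6.17 in pre-leptotene cells and at 7.36, 8.75 and 8.79 in leptotene-zygotene cells, a difference of -2.46 that did not pass (adjusted p = 0.118) but did with the block (-2.52, adjusted p = 0.00188). None of these genes set the fraction labelled pre-leptotene apart from both neighbours, and Bhmg1, the gene of MEIOSIN, has no probe set on the array.

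In 5 of the 23 all within-project differences were positive (14.6% of all genes). The meiotic entry list averaged between 9.71 and 10.09 in spermatogonia, between 9.99 and 10.27 in pre-leptotene cells and between 10.05 and 10.22 in leptotene-zygotene cells, so its arrays overlapped. In each of the 5 within-project pairs the pre-leptotene array had the higher list mean, by small amounts: 10.12 against 9.92 and 10.11 in project 2, 9.99 against 9.71 in project 5, and 10.27 against 10.07 and 10.22 in project 8.

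Replication and division genes differed in their medians. Of 38 genes of DNA replication, E2f2, an S-phase transcription factor, was the only member called. It read 7.99, 8.56, 9.19 and 6.82 in spermatogonia, 6.50, 7.46 and 7.20 in pre-leptotene cells and 4.18, 4.28 and 4.45 in leptotene-zygotene cells, higher than the later fraction by 2.75 (adjusted p = 0.00983). The list's medians were -0.12 from spermatogonia and 0.29 from leptotene-zygotene cells. For 24 genes of mitosis they were 0.62 and -0.03, with 0 called, and 7 higher than in spermatogonia with the block (0.325% of all genes). Among these were Plk1, a mitotic kinase (1.26, adjusted p = 0.0311), Prc1, a protein of the central spindle (1.31, adjusted p = 0.0309), and Cdk1 (0.92, adjusted p = 0.0339). Mitosis genes thus had levels in pre-leptotene cells near those of leptotene-zygotene cells, at 10.59, 10.86 and 11.11 against 10.63, 10.94 and 11.16 as list means per array.

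Of 46 chromatin regulators, 20 had their highest mean of the 3 fractions in pre-leptotene cells (28.4% of all genes), with medians of 0.21 and -0.01. All within-project differences were positive in 17 of the 46 (14.6% of all genes) and negative in 1 (15.4%). Only Ehmt1, a histone H3 lysine 9 methyltransferase, was separated, and its differences of 0.32 and 0.35 were small (adjusted p = 1 and 0.958). Arid2, a subunit of a chromatin remodelling complex, was lower than in leptotene-zygotene cells (-1.32, adjusted p = 0.0374). Lists of stem and progenitor cells (medians 0.20 and -0.56), meiotic prophase (0.05 and -0.08) and ribosomal proteins (-0.01 and -0.06) had 0 members called in either comparison. With the block, Id4 of the first list (-1.86, adjusted p = 0.0149) and Spo11 of the second were lower than in leptotene-zygotene cells. The 26 immediate early and stress genes had medians of -0.64 and 0.15, also with 0 called. With the block, Jun, Junb, Ier2, Atf3 and Zfp36 of this list were lower than in spermatogonia, from -2.50 for Junb to -1.44 for Zfp36 (5 of 26, against 4.91% of all genes), and Klf6 was higher than in leptotene-zygotene cells (1.12, adjusted p = 0.049). These are genes induced quickly by stress or growth signals, and their mean was highest in spermatogonia replicate 4, at 10.07.

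Other genes separated pre-leptotene cells from 1 neighbour only. Lad1, an anchoring filament protein of epithelia, read 3.45, 2.85, 3.26 and 3.34 in spermatogonia, 5.76, 5.34 and 6.50 in pre-leptotene cells, and 5.65, 5.44 and 4.37 in leptotene-zygotene cells. It was higher than in spermatogonia (2.64 ± 0.31, adjusted p = 0.00219), and the difference of 0.71 from leptotene-zygotene cells did not pass.

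Markers of macrophages differed between the fractions and within them. Lyz2, the macrophage lysozyme, read 7.79, 8.88, 9.13 and 10.28 in spermatogonia, 5.93, 3.19 and 3.19 in pre-leptotene cells, and 3.32, 3.14 and 3.52 in leptotene-zygotene cells, and was lower in pre-leptotene cells than in spermatogonia (-4.92, adjusted p = 0.00219). Csf1r, a growth factor receptor of macrophages, was at 9.06 in pre-leptotene replicate 1 and at 2.15 and 2.12 in replicates 2 and 3. The mean of the 15 macrophage genes was 5.72 to 8.23 in spermatogonia, 6.94, 3.73 and 3.39 in pre-leptotene cells and 3.31 to 4.00 in leptotene-zygotene cells, and 3 of the 15 were lower than in spermatogonia (0.634% of all genes), or 9 with the block (4.91%). The 3 were Lyz2, Ptprc and Aif1, of which Aif1 also reads 12.29 in round spermatids. Adgre1, a defining marker, was under 5 in all 10 arrays.

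The means of the 10 Sertoli genes were 7.05 to 7.50, 6.86 to 7.49 and 7.55 to 8.04 in the 3 fractions in order, of the 6 Leydig genes 6.76 to 7.62, 6.29 to 7.04 and 7.52 to 8.0, and of the 8 peritubular and vessel genes 6.16 to 8.78, 5.76 to 6.40 and 5.36 to 6.57. Cyp17a1, a steroidogenic enzyme of Leydig cells, was lower than in leptotene-zygotene cells (-3.58, adjusted p = 0.0236). Of the 6 Leydig genes, 1 passed in this way (2.5% of all genes), or 3 with the block (5.66%). The pre-leptotene mean was the lowest of the 3 fractions in 3 of the 6 and the highest in 2. Sox9, Amh, Fshr and Cyp11a1, defining markers of Sertoli and Leydig cells, were under 5 in all 10 arrays. The part of these cells in the results above was not tested.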

How the data were processed

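The authors deposited GC-RMA signal intensity, not yet in log2, made in GeneSpring from Affymetrix MOE430 version 2 arrays; for the version of GCRMA: not given in the sources used here. Replicates are arrays of separate RNA pools, p-values measure the spread between these arrays, and their number limits the precision. Fractions and replicate numbers came from the sample labels, and 0 columns lacked a sample. After taking log2, 22396 of 45037 probe sets with a value of at least 5 in at least 2 of the 20 arrays were tested.

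limma 3.58.1 in R 4.3.3 (lmFit, contrasts.fit, eBayes) fitted 8 fractions over 20 arrays. There were 12 residual and 3.69 prior degrees of freedom, p was two-sided, and adjustment was by Benjamini-Hochberg at 0.05. A probe set was called when pre-leptotene minus spermatogonia and pre-leptotene minus leptotene-zygotene both passed in the same direction. Array projects were read from column names of a supplementary table whose signals equalled those of 1 array each, and were used as a fixed block and as a random block (consensus correlation 0.409). Within-project values are differences of single arrays.

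Of the 45037 probe sets, 34945 had 1 gene in the platform annotation, 932 several and 9160 none. In 19 lists of 538 genes, 438 were tested, each by its brightest probe set. The rule for names took all probe sets called, then up to 15 separated probe sets in each direction with a mean of at least 6 by the smaller of their 2 differences, then up to 4 members a list and the defining genes of the topic. Outside it, and after their values were seen, Izumo3, Adam3, Acr, Ldhc, Cfap52, Rsph1, Dnah8, Piwil1, Ehmt1, Jun, Junb, Ier2, Atf3, Zfp36, Klf6, Prc1, Cdk1, Nasp and Rbm39 were named. Members and lists were chosen with earlier results of these data known. Promoter windows were from RefSeq (GRCm38.p6), matched by gene ID. There were 26 alternatives, and 14 added after the data were seen. The fit was tested on simulated data. Other steps used Python 3.11.15, numpy 2.4.6, pandas 2.3.3 and matplotlib 3.10.9.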

Additional observations from a re-analysis of the deposited data

Results flagged for a closer look

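In a group of 4 arrays, 1 array can lie far from the other 3 by Dixon's criterion, which chance meets in about 1 of 20 groups. Of the 78 groups of 4 spermatogonia arrays checked, 4 met it. Nit1 was at 4.48 in spermatogonia replicate 4, against 5.0 to 5.03 in the other replicates. Rec8 was at 6.84 in the same array, against 8.18 to 8.36. The mean of the DNA replication list was 10.68 in spermatogonia replicate 3, against 10.22 to 10.25. The mean of the Sertoli list was 7.50 in spermatogonia replicate 4, against 7.05 to 7.11. Groups of 3 arrays were not checked.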

How the results depend on the processing

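The counts of 5 probe sets higher and 2 lower than both neighbours rest on values close to the threshold. They were 0 and 0 with only the 10 arrays, with median centring and with the mean of both neighbours as 1 contrast, 1 and 0 with another quantile normalisation, 3 and 0 with no filter on low values, 4 and 3 with a stricter filter, 6 and 0 with values under 5 raised to 5, 4 and 7 with an intensity trend and robust fit, and 15 and 105 with array weights. Array project gave 25 and 174 as a fixed block, 41 and 237 as a random block, and 0 and 0 as a fixed block with the 10 arrays. Arrays outside the range of the other 7 numbered 258 and 392, a fold of 2 in both differences gave 254 and 617, and 1 sign in all within-project differences 3970 and 2687, all with no test. Leaving out 1 array in turn gave 0 to 8 higher and 0 to 33 lower probe sets. The lower count was 28 without spermatogonia replicate 4, 21 without pre-leptotene replicate 2 and 1 without spermatogonia replicate 2 or leptotene-zygotene replicate 3. The higher count was 0 without spermatogonia replicate 1 or any 1 of the leptotene-zygotene arrays, 1 without spermatogonia replicate 2 or pre-leptotene replicate 2 or 3, and 8 without spermatogonia replicate 4 or pre-leptotene replicate 1. The 25 and 174 of the fixed block were 23 and 100 with median centring, 34 and 117 with another quantile normalisation and 31 and 67 with values under 5 raised, and ran from 0 to 29 and from 0 to 364 without 1 array. Both were 0 without spermatogonia replicate 2, pre-leptotene replicate 2 or 3 or leptotene-zygotene replicate 1, and the lower count was 1 without spermatogonia replicate 1, 5 without pre-leptotene replicate 1, 360 without spermatogonia replicate 4 and 364 without leptotene-zygotene replicate 2. The cause was not tested.

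Replicate numbers are not stated to pair the arrays. Deviations of arrays with the same number correlated between -0.172 and 0.671 (9 pairs, median 0.439), and a replicate block gave 33 higher and 50 lower probe sets.

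None of the 34 separated and called probe sets that are named turned direction in 711 alternative values. Their choice fixed this in large part, since leaving out 1 array cannot turn a difference between arrays that do not overlap. All 7 called probe sets lost the call in at least 1 alternative. The mean of both differences turned sign for 3 genes that passed in no fit used here: Kit, at -0.14 without pre-leptotene replicate 3 and -0.12 without leptotene-zygotene replicate 1, Dmc1, at -0.013 with the replicate block and from -0.095 to 0.37 without 1 array, and Cetn2, from -0.147 to 0.22 without 1 array. Of the list medians, that of stem and progenitor cells against leptotene-zygotene cells was -0.95 without pre-leptotene replicate 1 and -0.20 without replicate 2, that of the spermatid nucleus ran from -1.0 without pre-leptotene replicate 2 to -0.41 without leptotene-zygotene replicate 3, and that of macrophages against spermatogonia was -1.15 with values under 5 raised. The red blood cell gene tested, Slc4a1, moved against spermatogonia from -0.28 to 8.88e-16 with values under 5 raised, and against leptotene-zygotene cells from -0.09 to 0.34 and 0.16 with the fixed and random blocks. Signals near background carry little information on differences.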
